A study of Bos indicus with 9 samples.

Results

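The skeletal myosin heavy chain cluster is a row of related genes that encode the motor proteins of the thick filament in skeletal muscle. The cluster was taken as the window chr19:29200000-30400000 of the cattle assembly ARS-UCD1.2, and every open chromatin peak with at least 1 bp in that window was a member. This gave 31 of the 140923 peaks in the series, with 21 from hypothalamus, 8 from muscle, and 2 from liver. Peaks entered by position alone, but earlier results of these data were known when the members were chosen.

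Each myosin heavy chain carries the ATPase head that pulls on actin, and the form made by a fiber sets how fast that fiber shortens. MYH3 encodes the embryonic form and MYH8 the perinatal form, which are used while muscle develops and regenerates. MYH2 encodes the adult fast form of type IIa fibers, and MYH1 the faster form of type IIx fibers. In mammals these genes lie side by side with MYH4 and MYH13, between GAS7 and SCO1, and fibers switch from one gene of the row to another during development and with use.

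In ATAC-seq, the Tn5 transposase inserts adapters where DNA is not packed away, and stretches where insertions pile up are called as peaks of open chromatin. Hypothalamus, muscle, and liver were frozen after slaughter from 3 unrelated Brahman heifers, an indicine breed, all past puberty and alike in age and weight, which gave 3 libraries per tissue and 9 in all. The labels name no treatment, and the comparison is between tissues of the same animals. The authors combined the heifers of a tissue into 1 consensus peak list, so values of the single heifers were not analyzed here. For this reason no difference between tissues could be tested against the spread between animals, and counts and values are given beside those of the whole list. Whole tissue was used, so fewer nuclei of a cell type and less open chromatin per nucleus cannot be told apart. A peak missing from a list was below the peak caller's threshold there, which does not show that the site was closed.

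Each peak has a signal, the AUC (area under the curve) of the caller's statistic above its threshold, and the −log10 p at its summit, combined over the heifers. Neither value was scaled between lists. A peak was therefore placed by its percentile, the percentage of peaks of its own list with a lower value. The lists differed in size, with 78528 peaks in hypothalamus, 40104 in muscle, and 22291 in liver, and a longer list can hold more peaks with no partner in the others. The lowest AUC was 200.0 in every list.

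Positions of the single myosin genes on ARS-UCD1.2 were not analyzed here, and no peak is assigned to MYH1, MYH2, MYH3, or MYH8. The parts of the study's own annotation read here, of the same build, place TMEM107 below the window and ALDH3A2 above it. These are the nearest genes in those parts. In the gene order of another indicine assembly, GAS7 and SCO1 lie between those outer genes, and 6 protein-coding genes with placeholder symbols stand between GAS7 and SCO1. None of the 4 member symbols (0 of 4) appeared in that gene table. The outer genes are far apart, with 69 protein-coding genes between them in that assembly. The parts of the annotation read here list 0 genes inside the window. Other parts were not read, so this 0 does not show that the study's annotation has no gene there. The gene content of the window was therefore not checked closely, and it is named after its rule.

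Of the 25 tissue markers looked for, 3 had a start in the parts of the study's annotation read here. Those parts list a gene because a peak lies next to it, so a peak at its start in some tissue is largely fixed by that choice, and the following is a description. CHRNA1, a subunit of the muscle acetylcholine receptor, had a peak within 1 kb of its start in muscle and in neither other list. DES, which encodes the muscle intermediate filament desmin, had one in muscle and hypothalamus. AHSG, a plasma protein made by the liver, had one in hypothalamus but not in liver. The start of TPM3, the 1 gene of the 28 in the sarcomere list with a start, had a peak in muscle and in neither other list. None of the 5 other myosin heavy chain genes looked for (0 of 5) had a start there.

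Muscle had 7 peaks in the window that overlapped no peak of another tissue, and all of them lay in one stretch of 96.0 kb, chr19:29501918-29597903. Neither hypothalamus nor liver had a peak anywhere in that stretch. The eighth muscle peak lay 69.5 kb above the stretch, at the 1 site of the window that was open in all 3 tissues. Hypothalamus had 20 peaks of its own on both sides of the stretch, and liver had 1.

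When overlapping peaks were merged, the 31 peaks made 29 separate sites. Of these, 28 were open in 1 tissue and 1 was open in all 3, while none (0 of 29) was shared by exactly 2 tissues. With a summit threshold of 5 in every list, 0 sites were open in all 3, since the liver peak of the shared site fell below it. The plot of summits along the window shows the 3 tissues one above the other.

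**Figure D1:**
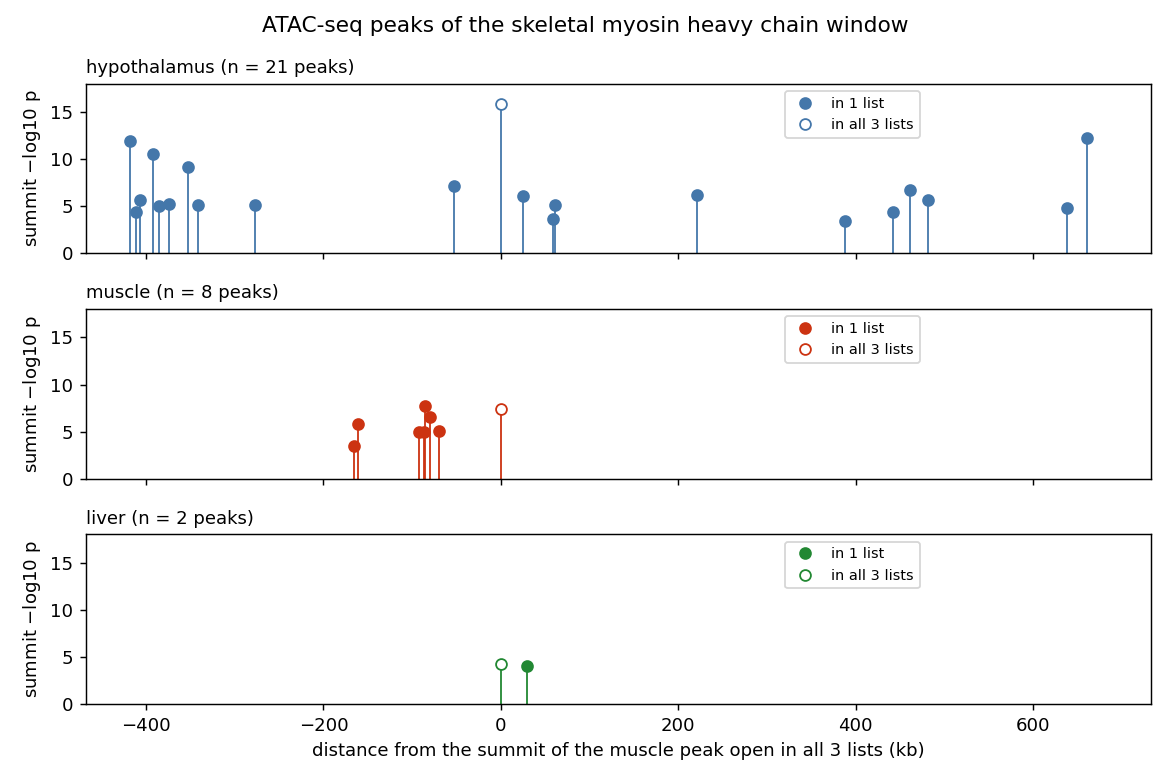
Summit −log10 p (y axis) of the 31 peaks against the distance in kb from the summit of the muscle peak open in all 3 lists (x axis), with 1 panel per tissue. Filled points are peaks found in 1 list and open points are those found in all 3; the 7 filled muscle points stand in a stretch below 0 that holds no hypothalamus or liver point.

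In muscle, 7 of 8 peaks (87.5%, Wilson 95% interval 52.9 to 97.8) were tissue-specific, meaning that no peak of the other lists overlapped them by 1 bp or more. Over the whole muscle list the share was 28.5%, and over chromosomes 1 to 29 and X it was 36.0%. The interval covers counting error alone and treats the peaks as independent, although the 7 lie in one stretch. The difference from the rest of the list was not tested. Among 1387 tiles of 1.2 Mb with 5 or more muscle peaks, the median share of muscle-specific peaks was 37.1%, and 98.3% of the tiles had a lower share than the window. As high a share was found in 24 tiles. Many of the tiles held more muscle peaks than the window, and a share from few peaks varies more than one from many. Tiles with about as few peaks as the window were not set apart.

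In hypothalamus, 20 of 21 peaks (95.2%, Wilson 95% interval 77.3 to 99.2) were tissue-specific. The share was 67.9% over the whole hypothalamus list and 74.8% over the chromosomes. With equal numbers of peaks per list, hypothalamus kept 5 peaks in the window, of which 4 were tissue-specific, beside 4 muscle and 2 liver peaks. The share over all peaks with equal numbers was not analyzed here, so the 4 of 5 cannot be set beside the shares above. In liver, 1 of 2 peaks was tissue-specific, beside 9.93% over the whole liver list and 7.78% over the chromosomes, and 2 peaks are too few to set beside those shares.

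Since no site was shared by exactly 2 tissues, every window peak that was not tissue-specific was open in both other tissues. The counts that follow are therefore the remainder of those above and come from the 1 shared site. In the window the share of peaks open in both other tissues was 1 of 21 in hypothalamus, 1 of 8 in muscle, and 1 of 2 in liver. Over the chromosomes the same share was 12.9% for hypothalamus peaks, 30.4% for muscle peaks, and 79.3% for liver peaks.

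The muscle peaks of the stretch formed a lower pair and an upper group. The lower pair spanned 5.82 kb. Its first peak, chr19:29501918-29502178, was the weakest of the 8, with 261 bp, an AUC of 202, and a summit −log10 p of 3.53. That AUC was close to the caller's minimum, at percentile 0.41 of the muscle list, and the summit was at percentile 5.0. Its second peak, chr19:29507180-29507738, was well above it, with 559 bp, an AUC of 988, and a summit −log10 p of 5.80, at percentile 57.4.

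After 67.5 kb without a muscle peak, the upper group of 5 peaks followed within 22.7 kb, chr19:29575250-29597903. Peaks covered 2122 bp of that span, or 9.37%, and their AUC added up to 4407 of the 5597 for all 7 peaks. The group opened with chr19:29575250-29575546, which had an AUC of 416 and a summit −log10 p of 4.93, at percentile 41.8. The next peak, chr19:29581395-29581786, had an AUC of 707 and a summit −log10 p of 4.98, at percentile 42.9.

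The strongest muscle-specific peak of the window by both measures came 0.806 kb further on, at chr19:29582593-29583112. It had 520 bp, an AUC of 1542 (percentile 76.2), and a summit −log10 p of 7.68 (percentile 78.8), and its AUC per bp of 2.97 was the highest among the 8 muscle peaks. Next to it, chr19:29587278-29587721 had an AUC of 1216 (percentile 69.2) and a summit −log10 p of 6.52 (percentile 67.1). The group ended with chr19:29597435-29597903, which had an AUC of 524 and a summit −log10 p of 5.03, at percentile 43.9. The upper group thus held a strong middle with weaker peaks on both sides, as the plot of AUC along the stretch shows.

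**Figure D2:**
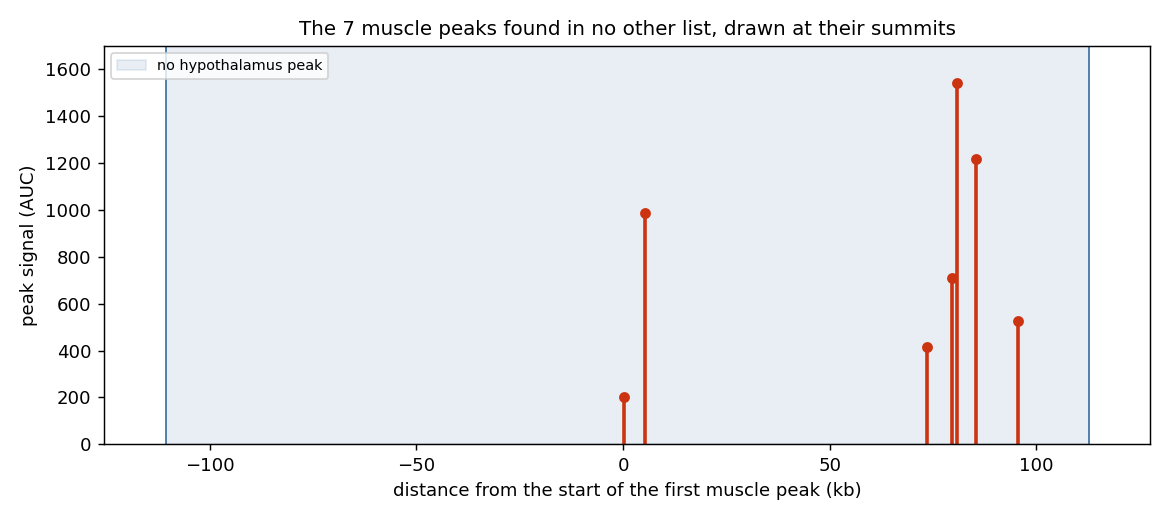
AUC (y axis, caller's units) of the 7 muscle peaks found in no other list, drawn at their summits against the distance in kb from the start of the first (x axis). The shaded band is the 223 kb without a hypothalamus peak; 2 peaks stand at its middle and 5 in its upper part, of which the third reaches 1542.

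The spacing within the stretch was mostly tight. The 5 distances inside the pair and the group were 5.0, 5.85, 0.806, 4.17, and 9.71 kb, all below the 14.8 kb that was the median distance between neighboring muscle peaks on chromosomes. The 67.5 kb between the pair and the group was at percentile 77.7 of those distances, and the 69.5 kb up to the shared site was at percentile 78.1.

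The muscle-specific peaks of the window were compared with the 10976 muscle-specific peaks on chromosomes, whose median lay below the 5.14 of all muscle peaks there. The window's median summit −log10 p was 5.03, against 4.53 for the whole class, and 6 of 7 lay above that median. Their median AUC was 707 beside 454, and 5 of 7 lay above. Within that class the peak chr19:29582593-29583112 was at percentile 95.8 by summit and 92.3 by AUC, and the peak chr19:29501918-29502178 was at percentile 7.86 by summit. The 7 peaks thus ranged widely within the class, with the other 5 between percentiles 61.3 and 87.5 by summit.

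Uninterrupted rows of muscle-specific peaks were counted across the chromosomes, taking each row as consecutive muscle-specific peaks with no peak of another tissue between them. Of 6454 rows, 4329 held a single peak and 124 (1.92%) held 7 or more. These 124 rows took in 1279 of the 10976 muscle-specific peaks, or 11.7%. The row of the myosin window was 1 of 42 with exactly 7 peaks, while 82 rows were longer and the longest held 45. Its span of 96.0 kb was longer than that of 69.4% of the rows with 7 or more peaks, whose median span was 57.3 kb. The row was chosen for description after its peaks were seen. With a stricter threshold, a summit −log10 p of at least 5 in every list, it held 4 peaks, and with equal numbers of peaks per list it held 3.

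**Figure D3:**
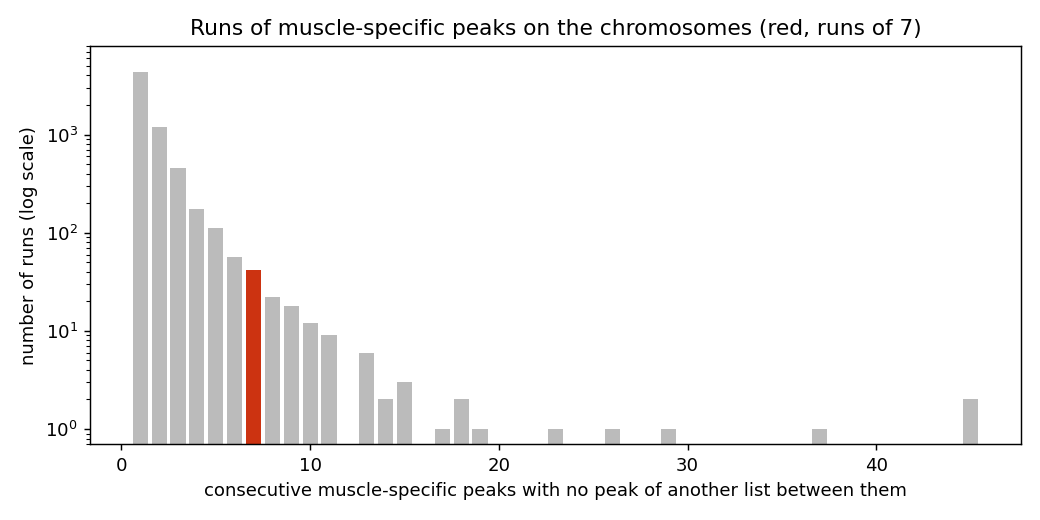
Number of rows of muscle-specific peaks on chromosomes (y axis, log scale) by the number of consecutive peaks in the row (x axis). The red bar marks rows of 7, the size found in the myosin window; 4329 rows hold 1 peak and the longest hold 45.

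The tightness of the upper group was set beside all sets of 5 consecutive muscle peaks on chromosomes, which overlap each other. Of 30363 sets, 12.9% spanned no more than 22.7 kb. Sets made up of muscle-specific peaks alone numbered 1885, and 596 of these were tight in this sense. Those 596 were 1.96% of all sets, a share that also counts the specificity for which the row was picked. Among the muscle-specific sets, 596 of 1885 is a larger share than the 12.9% of all sets. Such tightness was thus more common in the class of the upper group than over all sets. The upper group was part of a row picked after its peaks were seen.

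The stretch lay inside a gap of the hypothalamus list. The stretch was picked as 96.0 kb without a hypothalamus peak, so a gap longer than that was fixed by the choice. No hypothalamus peak fell in the 223 kb from chr19:29391227-29614571, while the median gap between hypothalamus peaks was 9.59 kb. This gap was longer than 97.3% of 70998 such gaps. Gaps at least as long numbered 1919, and their median number of muscle peaks was 0. Of these long gaps, 25 held 7 or more muscle peaks. The nearest hypothalamus peaks were 111 kb below the first muscle peak and 16.7 kb above the last. Liver had a gap of 1135 kb around the stretch, with its nearest peak 69.8 kb above, at the shared site.

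The site open in all 3 tissues was chr19:29667692-29668271, the 580 bp covered by all 3 lists. The hypothalamus peak there, chr19:29667192-29668712, had 1521 bp, an AUC of 6937, and a summit −log10 p of 15.9. The muscle peak, chr19:29667379-29668271, had 893 bp, an AUC of 1937, and a summit −log10 p of 7.38. The liver peak, chr19:29667692-29668405, had 714 bp, an AUC of 673, and a summit −log10 p of 4.26.

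The 3 summits stood within 85 bp of each other, with those of muscle and liver 12 bp apart. By summit the peak was at percentile 92.0 of the hypothalamus list, 76.1 of the muscle list, and 28.0 of the liver list. By AUC the percentiles were 89.9, 82.0, and 56.7, so the order of the tissues was the same and the distance between them was smaller. It had the highest summit −log10 p of the window in hypothalamus and liver and the largest AUC in muscle and liver.

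The site was also placed among the peaks open in both other tissues. By summit it stood at percentile 52.3 of 9166 such peaks in hypothalamus, 46.2 of 9280 in muscle, and 29.5 of 9563 in liver. By AUC the order differed, with percentile 42.1 for hypothalamus, 54.7 for muscle, and 54.5 for liver. The median summit −log10 p of such peaks was 15.6, 7.60, and 4.86 in the same order, so the order of the 3 values at the site was also the order of the medians.

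The other liver peak, chr19:29696848-29697175, had 328 bp, an AUC of 298, and a summit −log10 p of 4.10, at percentile 23.3. It was counted as liver-specific with a hypothalamus peak 2.98 kb away. Both liver peaks lay above the muscle stretch, and the last of them ended 703 kb below the upper bound of the window.

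Hypothalamus had 10 peaks below the shared site and 10 above it. The 5 with the largest AUC included the shared site and 4 hypothalamus-specific peaks. Of these, chr19:29249956-29251912 had the largest AUC of the window, 8015, with a summit −log10 p of 12.0 and a length of 1957 bp. Near the upper bound, chr19:30328321-30329316 had an AUC of 4057 and a summit −log10 p of 12.2. The other two stood near the lower bound, where chr19:29275021-29275633 had an AUC of 2407 and chr19:29314851-29315527 an AUC of 2059.

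The remaining 16 hypothalamus peaks were weaker, and the lowest summit −log10 p was 3.39, at percentile 1.58. Over the 20 hypothalamus-specific peaks the median summit −log10 p was 5.44, beside 5.35 for all 53103 hypothalamus-specific peaks on chromosomes, and 10 of 20 lay above that value.

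Within their own lists, the window's peaks ranged widely in hypothalamus and muscle, with medians near the middle, and both liver peaks stood low by summit. By summit, the median percentile was 45.5 in hypothalamus (range 1.58 to 92.0), 50.6 in muscle (range 5.0 to 78.8), and 25.6 in liver (23.3 and 28.0). No muscle peak (0 of 8) was above the 90th percentile by either measure, and 2 of 8 were above the 75th by summit. In hypothalamus, 1 of 21 was above the 90th percentile and 4 of 21 were above the 75th by summit. By AUC the medians were 41.7 in hypothalamus and 57.1 in muscle, with 38.4 in liver.

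**Figure D4:**
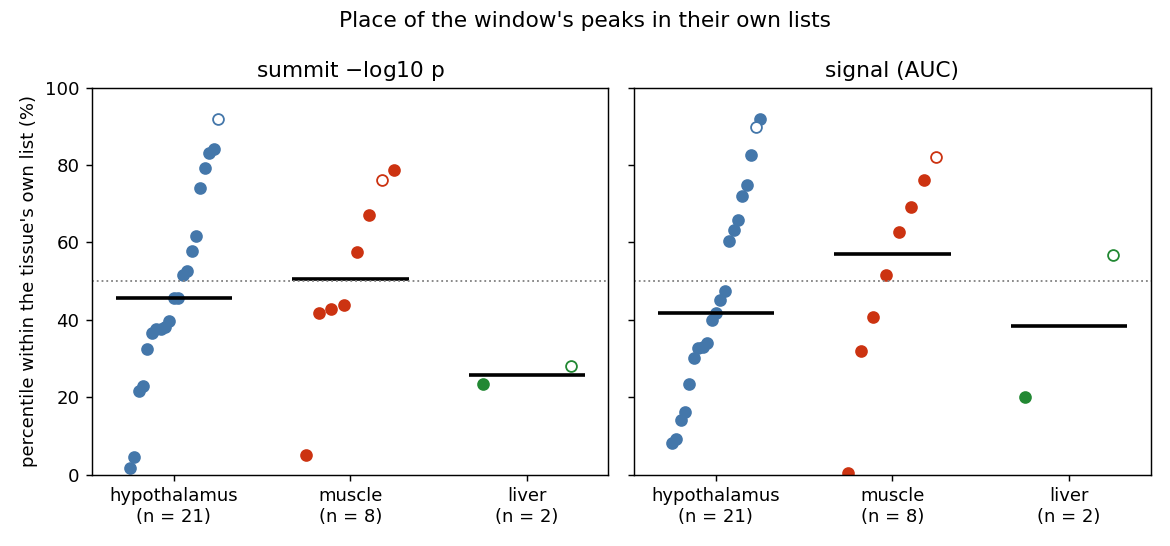
Percentile of each of the window's peaks within its own tissue's list (y axis, %) by summit −log10 p (left) and AUC (right), with 1 point per peak; open points mark the site in all 3 lists, black lines the medians, and the dotted line 50%. Muscle medians are 50.6 and 57.1, and no muscle point is above 90.

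The median length was 426 bp in hypothalamus, 457 bp in muscle, and 521 bp in liver, beside 567, 521, and 490 bp on chromosomes. Hypothalamus peaks covered 12.4 kb of the window (1.03%), muscle peaks 3.83 kb (0.320%), and liver peaks 1.04 kb (0.0868%).

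The number of peaks in the window was near or below the median of the tiles. In muscle the window held 8 peaks and the median tile of 1.2 Mb on chromosomes held 8, with fewer in 47.9% of 2171 tiles. In hypothalamus it held 21 against a median of 26, with fewer in 41.9% of tiles, and in liver 2 against 3, with fewer in 37.1%. For muscle-specific peaks the window held 7 and the median tile 2, and 71.4% of tiles had fewer. Its muscle count was thus at the median of the tiles, while its share of muscle-specific peaks was matched or passed in the 24 tiles given above.

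**Figure D5:**
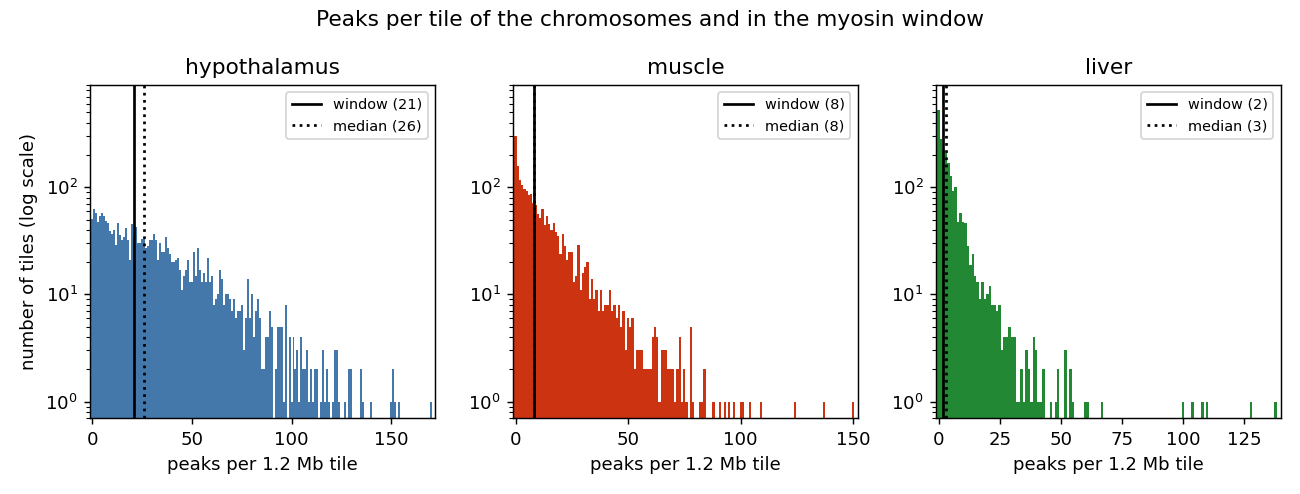
Number of tiles of 1.2 Mb on chromosomes (y axis, log scale) by the number of peaks in the tile (x axis), with 1 panel per tissue. The solid line is the myosin window (21, 8, and 2 peaks) and the dotted line the median tile (26, 8, and 3 peaks), and in muscle the lines coincide.

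Windows of the same size on both sides differed from the myosin window in the share of muscle-specific peaks. The window below held 11 muscle peaks, of which 5 were tissue-specific, and the window above held 7, of which 3 were. Hypothalamus had 60 peaks below, of which 52 (86.7%) were tissue-specific, and 16 above, of which 12 (75%) were, beside 95.2% in the window. Liver had 7 peaks below and 4 above. The muscle peaks of both neighbors reached higher summits, with a −log10 p of 10.7 below and 10.9 above, beside 7.68 within.

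The bounds of the window did not part close neighbors in muscle. The last muscle peak below the window was 10.7 kb outside it, with an AUC of 213, and the first inside was 302 kb from the bound. At the other end the last muscle peak inside was 732 kb from the bound, and the next lay 239 kb beyond it. In hypothalamus a peak with an AUC of 9075 and a summit −log10 p of 20.3 ended 1.97 kb below the lower bound, and the first peak inside started 50.0 kb above it.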

How the data were processed

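Tissue of 3 heifers was profiled by ATAC-seq, and samples were grouped by the tissue in their titles. HISAT2 was used by the authors for alignment to ARS-UCD1.2, keeping more than one placement of a read, and Genrich 0.6.1 for calling, removing PCR duplicates and the mitochondrial sequence. Genrich divides a read among its placements, and how this bears on the related myosin genes was not tested. The signal in the deposited lists is the AUC of each peak. The authors' summit −log10 p was combined over the 3 heifers by Fisher's method, without correction for multiple tests. The deposited summit is an offset from the peak start. Depth per library was not analyzed here.

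Starts were counted from 0 in the lists and are printed from 1. Overlaps of 1 bp or more were computed in python 3.11.15 with numpy 2.4.6 and pandas 2.3.3, and the counts were identical to those of bedtools 2.31.1. Wilson 95% intervals came from statsmodels 0.14.6, cover counting error only, and treat neighboring peaks as independent. Plots used matplotlib 3.10.9. On simulated data over 4000 loci, 9 of 9 planted quantities were recovered. No test was made, since the consensus lists used here give no values of single heifers.

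The peaks named are every muscle and liver peak and every shared site of the window, and the 5 hypothalamus peaks with the largest AUC. Peaks next to the bounds and to the muscle stretch were named after their values were seen. The members and lists were chosen with earlier results of these data known. Alternatives changed the threshold, the list sizes, the overlap rule, and the percentile. Gene names came from RefSeq for another assembly, whose coordinates were not used. Gene starts came from parts of the study's annotation of the same build. Sequences, motifs, and RNA-seq were not analyzed here.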

Additional observations from a re-analysis of the deposited data

How the results depend on the processing

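No paired analysis was possible because no list gives values of single heifers. Of 65 alternative values for 18 quantities, 39 stayed within tolerance and 26 did not. The tolerance was 1.5 times for a count, 1 SD over the window's peaks for a median percentile, and the Wilson 95% interval, which is narrow, for the percentile of a single peak or of the window among tiles.

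Keeping summits of 5 or more on the −log10 p scale, the window held 5 muscle and 0 liver peaks, of which 4 and 0 were tissue-specific, the muscle row held 4 peaks, and 0 sites were open in all lists, since the liver peak there fell out. With equal numbers of peaks, hypothalamus kept 5 peaks (4 specific) and muscle 4 (3 specific, a row of 3). With an AUC of at least 400, chosen after seeing the data, 0 liver-specific peaks were left. Shares of tissue-specific peaks over all peaks were not analyzed under these settings.

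The median liver percentile rose from 25.6 to 35.8 on chromosomes and to 38.4 by AUC. For the site open in all lists, the percentile on chromosomes, by AUC, and by AUC per bp was 91.7, 89.9, and 91.4 for the hypothalamus peak, 79.6, 82.0, and 71.0 for the muscle peak, and 38.8, 56.7, and 23.8 for the liver peak. By base pairs covered, 37.2% of tiles lay under the window for hypothalamus, 44.4% for muscle, and 42.6% for liver.

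The overlap rules (50% of either peak, within 1 kb, or 200 bp around summits) left the count of muscle-specific peaks at 7. The span of the annotated myosin genes and the motif search were not run. The parts of the annotation read here list no myosin gene in the window, and no genome was used.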
